A study of Mus musculus with 8 samples.

Results

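The genes described here end the response of a photoreceptor to light and return it to the dark state, and 10 were taken by symbol. They were *Rgs9*, *Rgs9bp*, *Gnb5*, *Guca1a*, *Guca1b*, *Gucy2e*, *Gucy2f*, *Rcvrn*, *Slc24a1* and *Pdc*. Every probe set of the mouse whole-genome array that is annotated with 1 of these symbols was used, which gave 13 of 45037 probe sets and 9 of 18193 named genes. *Gucy2f* has no probe set under its name in the annotation used and was not analysed here. A probe set is a group of short probes that measures a transcript, mostly near its 3' end.

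RNA came from retinas of C57BL/6J mice aged 80 to 120 days by the labels, which were kept in dim cyclic light. Control retinas were from mice in normal oxygen (day 0), and the other groups spent 3, 7 or 14 days in 75% oxygen, with 2 arrays at each of the 4 times. The methods describe a pool of retinas of both sexes for each time, and do not say that the 2 arrays came from separate pools, so the spread between them may be technical alone. The values are log2, and each probe set was centred on its own median over the 8 arrays. They therefore show how an array differs from the other arrays for 1 probe set, and give neither the level of a gene nor the order of levels between genes. For the same reason the label of the tissue could not be checked against the level of rod markers.

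In the dark a rod holds cGMP high, which keeps cation channels open and lets calcium in. Light activates transducin and then a phosphodiesterase, cGMP falls and the channels close. Recovery needs transducin to hydrolyse its GTP, which a complex of RGS9, its partner G beta 5 and the membrane anchor R9AP (the product of *Rgs9bp*) speeds up. It also needs cGMP to be made again. Calcium falls in the light because the exchanger of *Slc24a1* goes on removing it, and the guanylate cyclase activating proteins of *Guca1a* and *Guca1b* respond to low calcium by switching on the cyclases of *Gucy2e* and *Gucy2f*. Recoverin (*Rcvrn*) holds back rhodopsin kinase while calcium is high, and phosducin (*Pdc*) binds the beta and gamma subunits of transducin.

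Promoter sequence was held for 7 of the 10 genes in the RefSeq table (GRCm38.p6) and was read over the 250 bases before the start of the gene. Letters were searched on both strands for TAATCC, the core bound by the photoreceptor factors Crx and Otx2, for TGCTGA, part of the site of the rod factor Nrl, and for CANNTG, the E-box. The core was found in 4 of the 7, *Gnb5*, *Guca1a*, *Gucy2e* and *Gucy2f*, and 6.25% of the 32851 promoters of the table hold it. The Nrl letters were found in *Rgs9* alone among them (16.1% of all promoters), and the E-box in 5 of the 7 (66.2% of all). A match is a description of the letters and not a bound site. 4 promoters are shown, 2 of genes with a probe set that was low at day 3 (*Rgs9*, by 1 of its 3 probe sets, and *Slc24a1*) and 2 of genes that hold the core (*Guca1a* and *Gucy2e*). Capitals mark the core or the Nrl letters, on either strand, and *Slc24a1* has neither in this window.
Rgs9, chr11:109298182-109298431, minus strand: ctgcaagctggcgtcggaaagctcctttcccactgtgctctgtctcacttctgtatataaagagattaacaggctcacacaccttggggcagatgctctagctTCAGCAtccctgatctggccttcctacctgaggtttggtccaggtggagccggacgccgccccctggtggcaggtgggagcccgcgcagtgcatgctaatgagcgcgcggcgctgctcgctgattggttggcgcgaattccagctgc
Slc24a1, chr9:64951621-64951870, minus strand: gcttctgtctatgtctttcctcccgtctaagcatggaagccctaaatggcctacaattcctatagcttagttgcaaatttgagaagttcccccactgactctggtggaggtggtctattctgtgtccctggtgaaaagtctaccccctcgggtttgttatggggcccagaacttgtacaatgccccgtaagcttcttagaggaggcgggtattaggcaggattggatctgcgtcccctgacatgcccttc
Guca1a, chr17:47400607-47400856, minus strand: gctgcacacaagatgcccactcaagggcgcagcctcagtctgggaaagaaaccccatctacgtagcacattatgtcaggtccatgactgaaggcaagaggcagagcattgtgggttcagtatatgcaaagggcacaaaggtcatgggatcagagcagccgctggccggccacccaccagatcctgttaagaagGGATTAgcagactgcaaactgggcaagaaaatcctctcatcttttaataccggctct
Gucy2e, chr11:69237023-69237272, minus strand: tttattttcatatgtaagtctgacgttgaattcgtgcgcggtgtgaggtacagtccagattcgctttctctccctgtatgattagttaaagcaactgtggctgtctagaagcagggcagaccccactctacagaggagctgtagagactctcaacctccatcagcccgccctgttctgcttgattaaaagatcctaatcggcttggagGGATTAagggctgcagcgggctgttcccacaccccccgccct

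The arrays are not alike in ways that bear on every value given here. The array reads the 3' end and the 5' end of *Gapdh* apart, often taken as a sign of RNA quality. The 3' minus 5' difference was 1.19 on day 3 replicate 2 and 1.43 on day 14 replicate 2, against -0.32 to 0.12 on the other 6 arrays. Beta-actin had 1.0 and 1.24 on these arrays, against -0.94 to 0.44. The probe sets for poly-A controls, the mean of 4 bacterial transcripts, had 0.93 and 1.22, against -1.41 to -0.12. The sources used here do not say that these transcripts were added to the samples, and centred values cannot tell signal from background. The cause of the raised differences was not tested. On day 3 replicate 2 and day 14 replicate 2, medians of 11 microglia and macrophage genes were 1.26 and 1.13, against -0.29 to 0.30. Medians of 8 Muller glia and gliosis genes were 0.96 and 0.76 on them, against -0.37 to 0.17. The array labelled day 7 replicate 2 had the highest median of 7 lens genes (3.67) and of 8 genes of the retinal pigment epithelium (1.69). The lens medians also differed among the other arrays. They were -1.97 and 1.75 on the control arrays and -2.51 and -0.98 at day 3. On day 7 replicate 1 the lens median was 2.57, and at day 14 the values were 0.90 and -0.98. The part of these differences in the results was not tested. The quality table of the study places the raised *Gapdh* ratios on both arrays of the last time and on neither array of the earliest time in oxygen. The raised 3' minus 5' differences do not fall so under the deposited labels. That table names its ratio 5'/3', the reverse of the order used here. It was read here as 3'/5', a reading that could not be checked. *Gfap*, a gliosis gene, had values of -0.04 and 2.56 for the label day 3 and of 0.36 and 2.18 for the label day 14. Whether the label of an array is wrong could not be settled here, so each value at day 3 or day 14 is that of the label. Differences are therefore also given with day 3 replicate 2 and day 14 replicate 2 left out (the arrays with raised ratios), and with day 3 replicate 2 and day 14 replicate 1 left out (the arrays at odds with that table), which leaves 1 array at each of the times.

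At day 3 and day 14, *Rgs9* (by 1 of its 3 probe sets), *Rgs9bp*, *Guca1b* and *Slc24a1* were lowest among the members relative to control. For *Guca1b* at day 14 this held for 1 of its 2 probe sets, and the other was at -0.28. At day 7 all 4 genes stood close to control. *Rgs9bp* was 2.17-fold lower at day 3 and 2.03-fold lower at day 14, and the probe set of *Rgs9* was 2.29-fold and 2.31-fold lower. *Guca1a*, the neighbour of *Guca1b*, differed little at any time. In limma, with Benjamini-Hochberg adjustment across every probe set tested, 0 of the 13 passed at any time, as did 0% of all probe sets at each of day 3, day 7 and day 14 (lowest adjusted p of a member 0.471, 1 and 0.386). In whole retina, fewer photoreceptors and less RNA in each of them cannot be told apart.

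**Figure D1:**
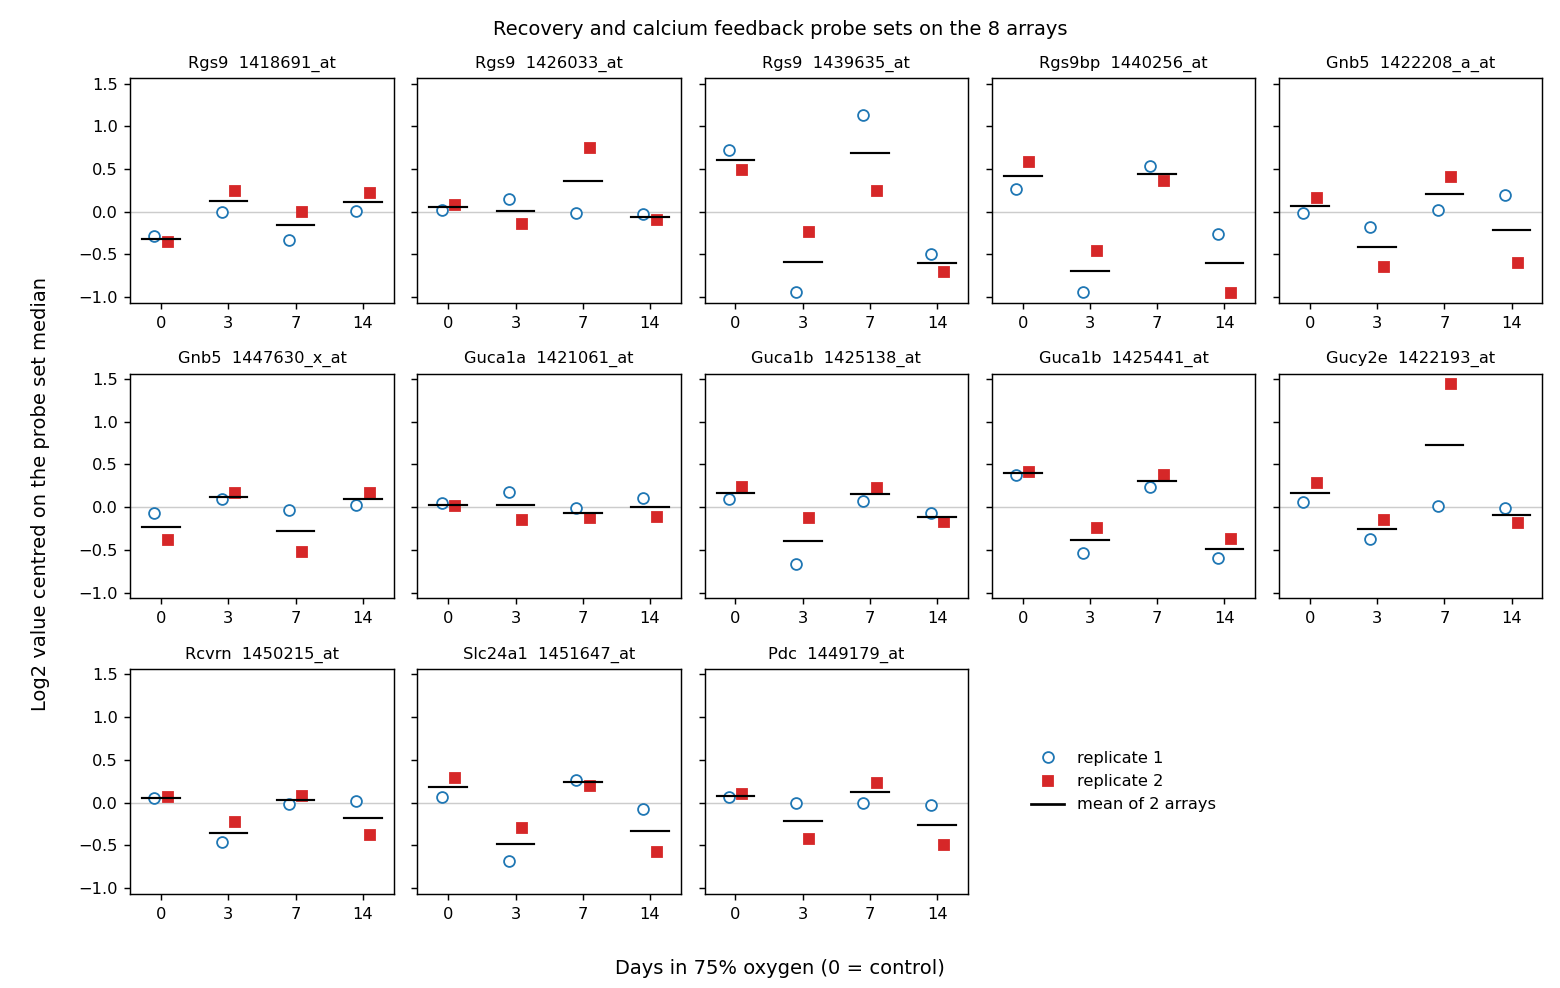
Log2 values of the 13 probe sets on the 8 arrays (y axis, centred on each probe set's median) by days in 75% oxygen (x axis, 0 is control). Open circles are replicate 1, filled squares replicate 2 and bars the mean of 2 arrays. The day 3 and day 14 arrays of Rgs9bp lie at -0.26 or below and its day 0 and day 7 arrays at 0.26 or above, whereas the arrays of Guca1a all lie between -0.15 and 0.18.

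The complex that ends the activity of transducin was measured by 6 probe sets. *Rgs9bp* (probe set 1440256_at), the membrane anchor, stood at 0.26 and 0.58 on the control arrays, -0.94 and -0.46 at day 3, 0.53 and 0.36 at day 7, then -0.26 and -0.95 at day 14. All 4 arrays of day 3 and day 14 were below all 4 arrays of day 0 and day 7. The log2 difference from control was -1.12 ± 0.28 (standard error from limma, n = 2 arrays each, adjusted p = 0.471) at day 3, 0.03 ± 0.28 (adjusted p = 1) at day 7 and -1.02 ± 0.28 (adjusted p = 0.462) at day 14. The last was -0.67 once day 14 replicate 2 was left out, and leaving out both second arrays of day 3 and day 14 made the day 3 difference -1.36. With day 3 replicate 2 and day 14 replicate 1 left out the differences were -1.36 and -1.37.

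*Rgs9*, the GTPase activating protein itself, has 3 probe sets with differences of unlike sign. Probe set 1439635_at stood at 0.72 and 0.49 on the control arrays, -0.94 and -0.24 at day 3, 1.13 and 0.24 at day 7, then -0.50 and -0.71 at day 14. Again no array of day 3 or day 14 reached an array of day 0 or day 7. The log2 difference was -1.19 ± 0.34 (adjusted p = 0.471) at day 3, 0.08 ± 0.34 (adjusted p = 1) at day 7 and -1.21 ± 0.34 (adjusted p = 0.472) at day 14. Leaving out the second arrays of day 3 and day 14 gave -1.54 and -1.10 for the 2 times, and leaving out the first array of day 3 gave -0.84 for that time. With day 14 replicate 1 left out in place of replicate 2, the day 14 difference was -1.31.

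The other 2 probe sets of *Rgs9* gave no such picture. Probe set 1418691_at stood at -0.29 and -0.35 on the control arrays, 0.00 and 0.24 at day 3, -0.33 and 0.00 at day 7, then 0.01 and 0.22 at day 14. It was thus higher on every day 3 and day 14 array than on both control arrays, with a log2 difference of 0.44 ± 0.17 (adjusted p = 0.474) at day 3 and 0.43 ± 0.17 (adjusted p = 0.594) at day 14. These were 0.32 and 0.33 with the raised-ratio arrays left out, and 0.32 and 0.54 with the arrays at odds with the table left out. Probe set 1426033_at stood between -0.14 and 0.15 on 7 arrays and at 0.74 on day 7 replicate 2, and its difference at day 14 was -0.11 ± 0.25 (95% interval -0.72 to 0.49). Averaged over the 3 probe sets, the difference was -0.27 (day 3) and -0.30 (day 14). The direction read for *Rgs9* therefore rests on the probe set that is read.

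*Gnb5*, the beta subunit that RGS9 needs for its stability and which other neurons of the retina also express, has 2 probe sets with differences of opposite sign. Probe set 1422208_a_at stood at -0.02 and 0.16 on the control arrays, -0.18 and -0.65 at day 3, 0.02 and 0.40 at day 7, then 0.19 and -0.60 at day 14. Its low values were on day 3 replicate 2 and day 14 replicate 2, the 2 arrays with high 3' minus 5' differences, and the log2 difference was -0.48 ± 0.30 at day 3 (-0.24 without day 3 replicate 2) and -0.27 ± 0.30 at day 14, where it was 0.12 without replicate 2 and -0.66 without replicate 1. Probe set 1447630_x_at stood at -0.07 and -0.39 on the control arrays, 0.09 and 0.16 at day 3, -0.03 and -0.53 at day 7, then 0.03 and 0.17 at day 14, with a difference of 0.33 ± 0.20 at day 14 (adjusted p = 0.69) that was 0.17 without control replicate 2. The suffix of this set marks probes that may match other transcripts too.

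The calcium sensors of the cyclases come from neighbouring genes on chromosome 17, with 0 annotated genes between them in RefSeq. *Guca1b* has 2 probe sets. On 1425441_at the arrays stood at 0.38 and 0.41 (control), -0.54 and -0.24 (day 3), 0.24 and 0.38 (day 7) and -0.60 and -0.37 (day 14). The gap between the 4 arrays of day 3 and day 14 and the other 4 was wider than the spread within any time. The log2 difference was -0.79 ± 0.16 (adjusted p = 0.471) at day 3, -0.09 ± 0.16 (adjusted p = 1) at day 7 and -0.88 ± 0.16 (adjusted p = 0.386) at day 14. This probe set had the smallest p of the members at day 3 and day 14, at rank 125 and rank 113 of all 45037 probe sets. Leaving out any 1 array kept the day 14 difference between -1.0 and -0.77. The day 3 difference was -0.93 without day 3 replicate 2, and the day 14 difference was -1.0 without day 14 replicate 2 and -0.77 without replicate 1.

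Probe set 1425138_at of *Guca1b* differed in the same direction by less. It stood at 0.09 and 0.23 on the control arrays, -0.67 and -0.13 at day 3, 0.07 and 0.22 at day 7, then -0.07 and -0.17 at day 14. The day 3 and day 14 arrays were below both control arrays, and the log2 difference was -0.56 ± 0.20 (adjusted p = 0.471) at day 3 and -0.28 ± 0.20 (adjusted p = 0.716) at day 14. Without day 3 replicate 1, the lowest array, the day 3 difference was -0.29.

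*Guca1a* (1421061_at) stood at 0.05 and 0.01 on the control arrays, 0.18 and -0.15 at day 3, -0.01 and -0.13 at day 7, then 0.11 and -0.12 at day 14. The arrays of day 3 and day 14 lay on either side of the controls. Its log2 difference was -0.01 (95% interval -0.41 to 0.38) at day 3, -0.10 (-0.49 to 0.30) at day 7 and -0.03 (-0.43 to 0.36) at day 14. The 95% interval of 1425441_at of *Guca1b* at day 14 was -1.26 to -0.50. Within each array, *Guca1b* 1425441_at minus *Guca1a* was 0.33 and 0.40 on the control arrays, -0.72 and -0.09 at day 3, and -0.71 and -0.25 at day 14. This comparison of neighbours was chosen after their values were seen. Relative to control this came to -0.77 at day 3 and -0.85 at day 14 on the log2 scale, with a two-sided exact permutation p of 0.333 each, the smallest that 2 arrays against 2 allow.

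*Gucy2e* (1422193_at), the cyclase that both sensors act on, stood at 0.06 and 0.28 on the control arrays, -0.37 and -0.15 at day 3, 0.01 and 1.44 at day 7, then -0.01 and -0.18 at day 14. The value of 1.44 on day 7 replicate 2 was the highest of any member on any array. On the same array *Rgs9* 1426033_at was at 0.74, and rhodopsin kinase (*Grk1*), which is no member and starts the shutoff of rhodopsin, was at 1.79. The log2 difference of *Gucy2e* at day 7 was 0.56 ± 0.42 with all arrays, -0.16 once day 7 replicate 2 was left out and 1.27 once replicate 1 was. At day 3 it was -0.43 ± 0.42 and at day 14 -0.26 ± 0.42, and its arrays of both times lay below both control arrays. The day 14 difference was -0.16 without control replicate 2. With the raised-ratio arrays left out the differences were -0.54 and -0.18, and with the arrays at odds with the table left out -0.54 and -0.35.

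*Slc24a1* (1451647_at), the sodium, calcium and potassium exchanger of the rod outer segment, stood at 0.07 and 0.29 on the control arrays, -0.68 and -0.30 at day 3, 0.27 and 0.20 at day 7, then -0.07 and -0.58 at day 14. The 4 arrays of day 3 and day 14 were again the lowest. The log2 difference was -0.67 ± 0.22 (adjusted p = 0.471) at day 3 and -0.50 ± 0.22 (adjusted p = 0.616) at day 14. They were -0.86 and -0.24 when the second arrays of both times were left out, and -0.86 and -0.76 when day 14 replicate 1 was left out in place of replicate 2.

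*Rcvrn* (1450215_at) stood at 0.05 and 0.06 on the control arrays, -0.46 and -0.23 at day 3, -0.02 and 0.08 at day 7, then 0.02 and -0.38 at day 14. Its log2 difference was -0.40 ± 0.17 (adjusted p = 0.492) at day 3, and at day 14 it was -0.24 ± 0.17 with all arrays and -0.04 without day 14 replicate 2. *Pdc* (1449179_at) stood at 0.07 and 0.10 on the control arrays, 0.00 and -0.42 at day 3, 0.00 and 0.23 at day 7, then -0.03 and -0.50 at day 14. For both genes the low value at day 14 came from the second array. The difference of *Pdc* was -0.29 ± 0.22 at day 3 and -0.34 ± 0.22 at day 14, and -0.08 and -0.11 with the second arrays of both times left out. Without day 14 replicate 1, the day 14 difference was -0.43 for *Rcvrn* and -0.58 for *Pdc*.

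**Figure D2:**
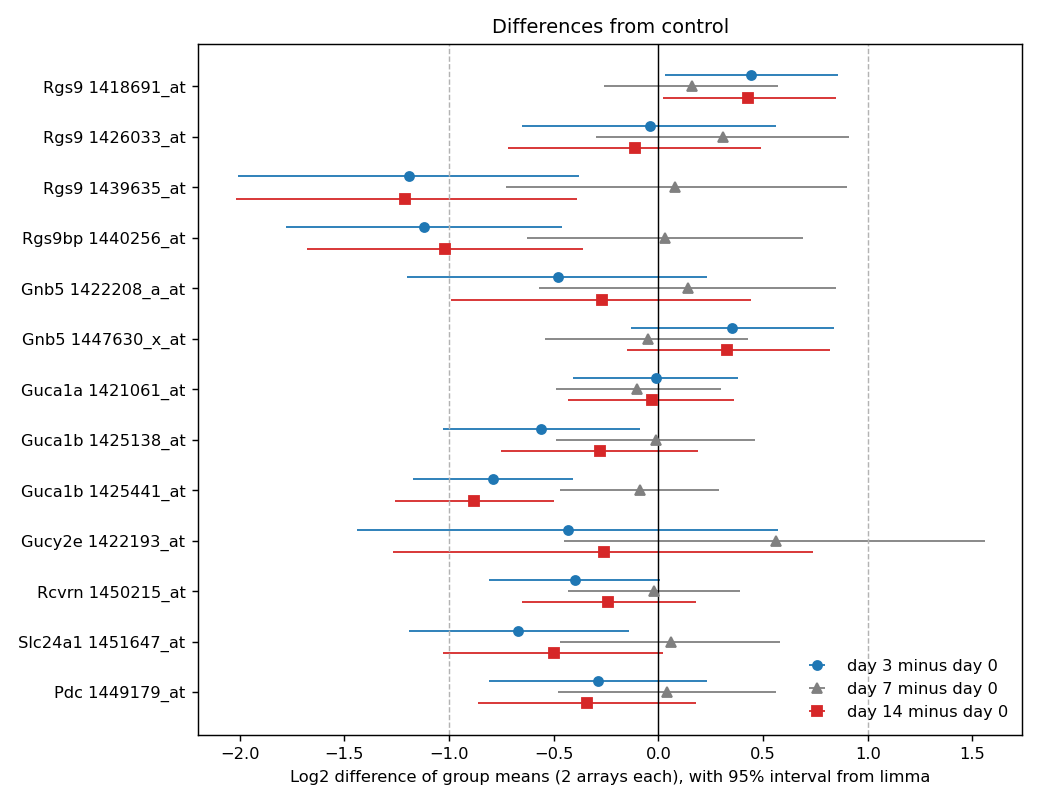
Log2 difference from control (x axis) of each probe set (y axis) at day 3 (circles), day 7 (triangles) and day 14 (squares), with 95% intervals from limma and n = 2 arrays a group. Dashed lines mark a 2-fold difference. Rgs9 1439635_at and Rgs9bp lie past it at day 3 and day 14, and the interval of every probe set at day 7 includes 0.

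Counted over the members, 2 of 13 probe sets lay 2-fold or more under control at day 3 (1.1% of all probe sets) and 2 of 13 at day 14 (1.84% of all), the same pair each time, *Rgs9bp* and *Rgs9* 1439635_at. At day 7 there were 0 of 13 (0.0844% of all). The count was 0 at day 3 without the first array of that day, 1 at both times without control replicate 2, and 1 at day 14 without the second array of that day. Both arrays lay below both control arrays for 9 of 13 at day 3 (17.8% of all), 2 of 13 at day 7 (12.3% of all) and 9 of 13 at day 14 (18.3% of all). The 2 at day 7 were *Guca1a* and *Guca1b* 1425441_at, with differences of -0.10 and -0.09. The median of the 13 differences was -0.43 at day 3, 0.04 at day 7 and -0.27 at day 14, where the median of all probe sets was 0.04, 0.00 and 0.05.

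With no adjustment, at p under 0.05 in limma, 5 of 13 were lower at day 3 (5.49% of all probe sets), 0 at day 7 (0.435% of all) and 3 at day 14 (5.13% of all). Those at day 3 were *Rgs9* 1439635_at, *Rgs9bp*, both probe sets of *Guca1b*, and *Slc24a1*, and those at day 14 were the first 2 and *Guca1b* 1425441_at. *Rgs9* 1418691_at was the 1 probe set that was higher at this level, at day 3 (4.83% of all) and at day 14 (3.14% of all). With day 3 replicate 2 and day 14 replicate 2 left out the counts of lower sets were 6 at day 3 and 3 at day 14, and with day 3 replicate 2 and day 14 replicate 1 left out they were 6 and 7. The count of 5 at day 3 came to 2 when the first array of that day was left out and to 3 when either control array was. Across the 4 times, the moderated F of limma was under an unadjusted p of 0.05 for 4 of 13 (8.09% of all), *Guca1b* 1425441_at (F = 16.7), *Rgs9bp* (10.3), *Rgs9* 1439635_at (8.84) and *Slc24a1* (5.41), with an adjusted p of 0.507 to 0.593.

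The 3 comparisons with control share the same 2 control arrays, so the times in oxygen were also compared with each other. Day 14 minus day 3 lay between -0.10 and 0.28 over the 13 probe sets, with an adjusted p of 0.998 or more. Day 7 was above day 3 by 1.28 ± 0.34 for *Rgs9* 1439635_at, by 1.15 ± 0.28 for *Rgs9bp*, by 0.73 ± 0.22 for *Slc24a1* and by 0.70 ± 0.16 for *Guca1b* 1425441_at, with adjusted p of 0.347 to 0.348. At an unadjusted p under 0.05 there were 5 of 13 between these times (12.1% of all probe sets) and 4 of 13 between day 14 and day 7 (10.3% of all). The order of the times for these 4 probe sets was thus day 0 and day 7 above day 3 and day 14. Within each of these pairs of times the unadjusted p was above 0.05, which does not show that they were alike.

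**Figure D3:**
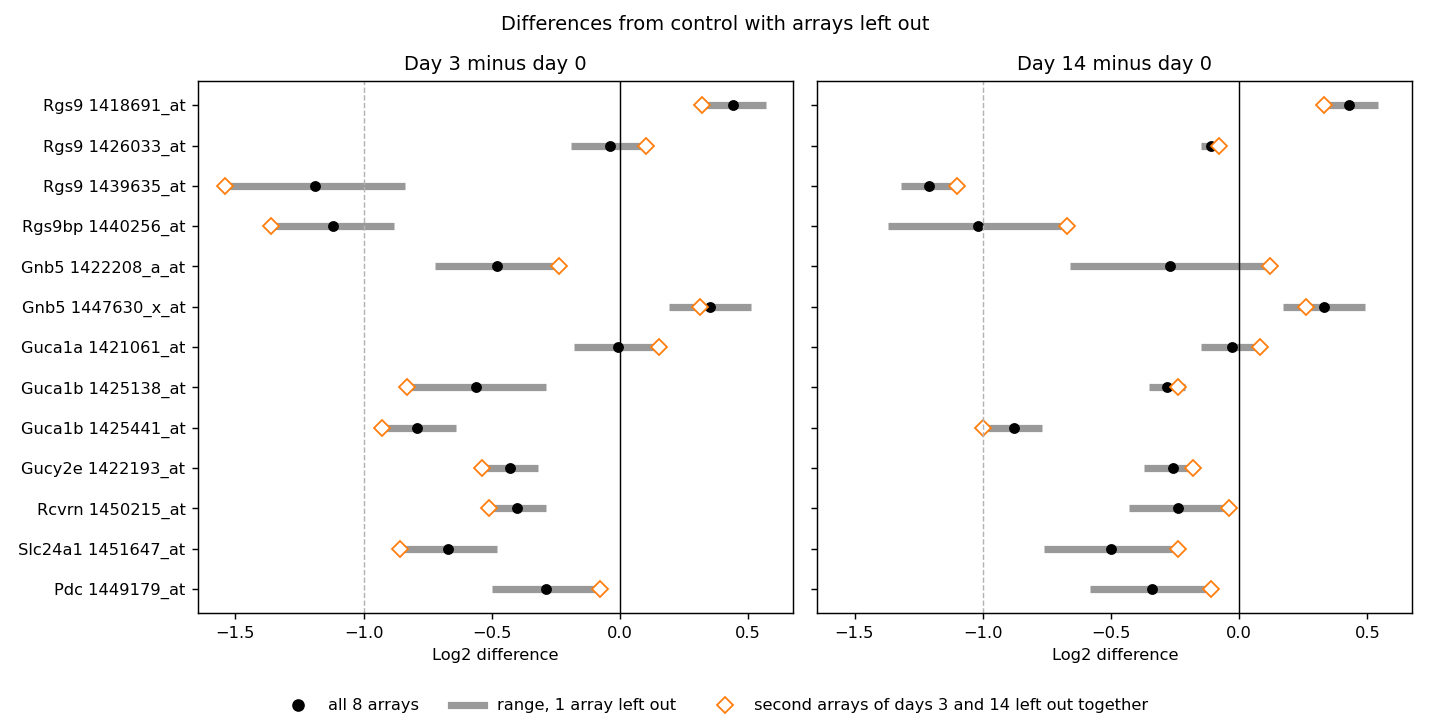
Log2 difference from control (x axis) of each probe set (y axis) at day 3 and day 14 with all 8 arrays (filled circles), its range when 1 array is left out (grey bars), and with the second arrays of days 3 and 14 left out together (open diamonds). Rgs9 1439635_at, Rgs9bp 1440256_at and Guca1b 1425441_at stay at -0.64 or below in both panels, and Gnb5 1422208_a_at reaches 0.12 at day 14.

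The probe sets differ in the sequence they were annotated with. Of the 13, 3 carry the accession of an expressed sequence tag, a single read of a cDNA clone, and these are *Rgs9* 1439635_at, *Rgs9bp* 1440256_at and *Gnb5* 1447630_x_at. The pair that was lower by 2-fold is among them, and the third was higher at day 14 by 0.33. The shares lower by 2-fold at day 14 were taken over all probe sets that name 1 gene. They were 0.883% for a RefSeq mRNA, 1.2% for another cDNA or mRNA, 2.11% for a RIKEN tag and 2.35% for another tag. At day 3 the shares were 1.17%, 0.908%, 0.973% and 1.31% in the same order. The part of the annotation in the differences of *Rgs9* was not tested.

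The other genes of the light response are given 1 value each, averaged over the probe sets of the gene. The rod activation cascade, from transducin to the cGMP channel, had 9 measured genes, of which 9 were lower at day 3 (median -0.32), 5 at day 7 (-0.07) and 8 at day 14 (-0.20). By the same measure the 9 recovery genes had 9 lower at day 3 (-0.40), 3 at day 7 (0.04) and 8 at day 14 (-0.30), while over all 18193 genes 40.8% were lower at day 3, 51.9% at day 7 and 36% at day 14 (medians 0.06, -0.01 and 0.08). The gene means passed an adjusted p of 0.05 in limma in 0 cases, and with no adjustment, at p under 0.05, there were 4 recovery genes and 2 of the cascade lower at day 3 (4.61% of all genes), and 3 and 0 at day 14 (3.56% of all). With day 3 replicate 2 and day 14 replicate 2 left out, 7 recovery genes were lower at each time (medians -0.51 and -0.18) and 7 and 3 of the cascade (-0.32 and 0.01). With day 3 replicate 2 and day 14 replicate 1 left out, 7 and 9 recovery genes were lower (-0.51 and -0.43) and 7 and 8 of the cascade (-0.32 and -0.40). Within the cascade 4 genes named for the rod phosphodiesterase had the smallest p at day 14, with *Pde6b* at -0.48 ± 0.19 at day 3 and -0.29 ± 0.19 at day 14. *Pde6d* was at -0.34 ± 0.23 at both times, *Pde6g* at -0.38 ± 0.16 and -0.20 ± 0.16, and *Pde6a* at -0.39 ± 0.20 and -0.22 ± 0.20. At day 14 these genes stood at 0.03 to 0.16 on replicate 1 and at -0.51 to -0.38 on replicate 2.

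The cone cascade, which has its own opsins, transducin and channel, had 3 of 8 genes lower at day 3 (median 0.07), 5 at day 7 (-0.09) and 3 at day 14 (0.08), with 0 at an unadjusted p under 0.05. *Opn1sw*, the short wavelength opsin, was at -0.68 ± 0.31 at day 3 and -0.51 ± 0.31 at day 14, and *Pde6h*, a cone phosphodiesterase subunit, at 0.42 ± 0.27 and 0.14 ± 0.27. The 3 genes of pigment shutoff all had negative differences at both times (medians -0.38 and -0.13), and were the cone arrestin *Arr3* (-0.60 ± 0.25 and -0.40 ± 0.25), *Grk1* (-0.38 ± 0.53 and -0.13 ± 0.53) and the rod arrestin *Sag* (-0.12 ± 0.13 and -0.03 ± 0.13). With day 3 replicate 2 and day 14 replicate 2 left out, 1 of the 3 was lower at day 14 (median 0.03). With day 14 replicate 1 left out in place of replicate 2, all 3 were (median -0.30). Of the 11 measured calcium and cyclase partners, 10 were lower at day 3 (median -0.35, 4 at an unadjusted p under 0.05, against 4.61% of all genes) and 9 at day 14 (-0.32, 2, against 3.56%). The day 14 median was -0.18 with both second arrays left out and -0.52 with day 3 replicate 2 and day 14 replicate 1 left out. They included *Ppef2*, a photoreceptor phosphatase with calcium binding motifs (-1.0 ± 0.25 and -0.81 ± 0.25), and *Atp2b1*, a calcium pump of the plasma membrane (-0.61 ± 0.20 and -0.83 ± 0.20). A list of RGS proteins and partners, named as outside photoreceptors, had medians of 0.05 at day 3 and 0.03 at day 14, with 3 of 9 lower at each. Where its genes are expressed was not tested, so these medians give no contrast between photoreceptors and other cells. *Rgs7bp* had the lowest value of this list at day 14 (-0.75 ± 0.40) and was at -0.31 ± 0.40 at day 3. The 1 gene at an unadjusted p under 0.05 was *Gnb4*, a G protein beta subunit, higher at day 14 (0.43 ± 0.12, where 4.45% of all genes were higher at this level), and *Rgs11* of bipolar cells was at -0.38 ± 0.21 at day 3 and -0.35 ± 0.21 at day 14.

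**Figure D4:**
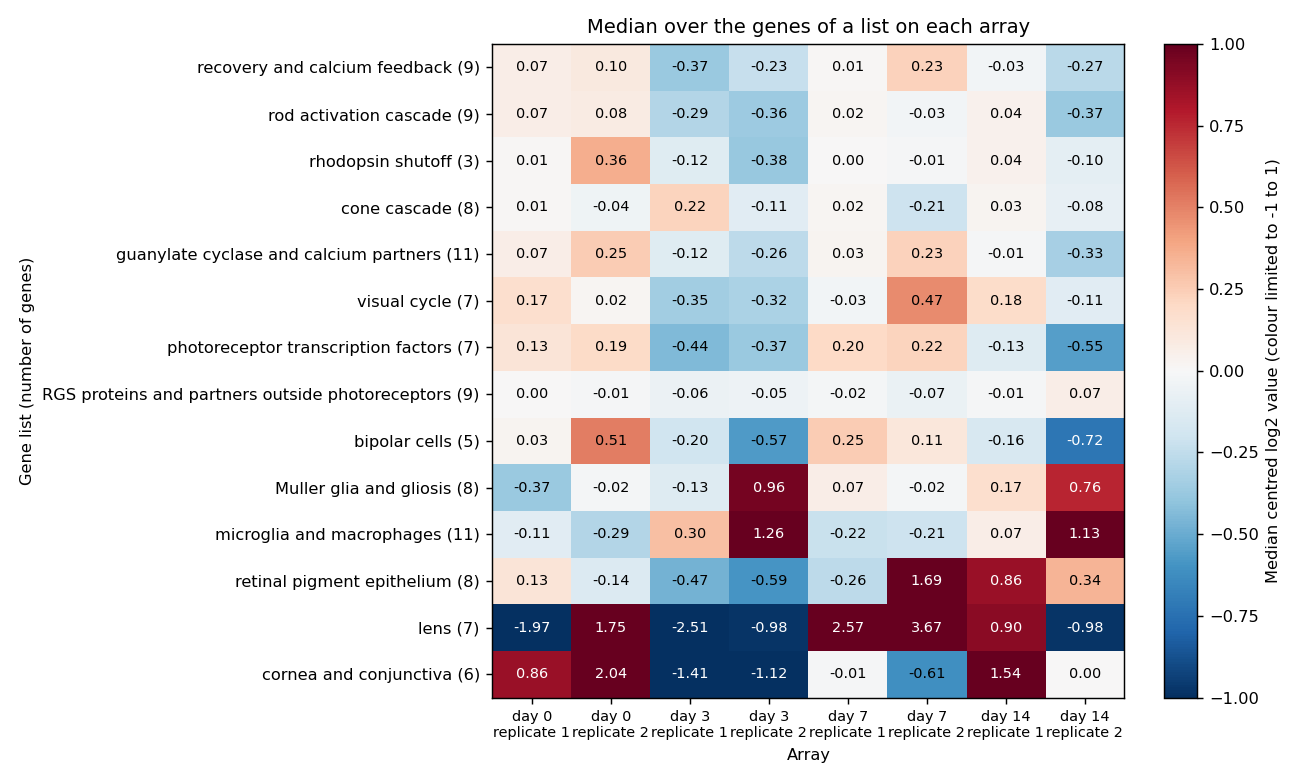
Median centred log2 value over the genes of each list (rows, number of genes in brackets) on each array (columns), with the value printed in each cell and the colour limited to -1 to 1. The recovery genes lie at -0.37 and -0.23 at day 3, while microglia and gliosis genes are highest on the second arrays of day 3 and day 14 and lens genes on those of day 7.

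The mean profile of the 9 genes over the arrays was 0.10 and 0.18 (control), -0.35 and -0.24 (day 3), 0.13 and 0.31 (day 7) and -0.07 and -0.38 (day 14). The 6 probe sets outside the members with the profile most like it, by Pearson's r over the 8 arrays, belonged to *Kif1b* (0.994), *Pik3r1* (0.990), *Cert1* (0.989), *Camta1* (0.986), *D430042O09Rik* (0.984) and *Mtus1* (0.984). They were picked for the highest r, so these values are a description. On *Kif1b*, a kinesin motor of axonal transport, the arrays stood at 0.11 and 0.42, -0.69 and -0.56, 0.23 and 0.53, and -0.11 and -0.72 in the same order. None of the 6 is a gene of the lists named here.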

How the data were processed

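Retinal RNA was measured on 8 arrays. The deposited values are log2, and per the labels the authors made them with RMA, which corrects background, normalizes by quantiles and summarizes probes (its version is not given in the sources used here), while the methods describe MAS5. Each probe set had a median of 0 across arrays (tolerance 1e-06), a centring the sources do not describe, so no filter on signal level could be applied. Of 45101 probe sets, 64 controls were set aside. The remaining 45037 entered 1 linear model with a mean for each of the 4 times (limma 3.58.1 under R 4.3.3, with lmFit, then eBayes, 4 residual and 2.71 prior degrees of freedom), with Benjamini-Hochberg adjustment and a threshold of 0.05. A 2-fold difference is 1 on the log2 scale. Gene names came from the platform annotation (34945 probe sets name 1 gene). Tables were made in Python 3.11.15 with pandas 2.3.3 and scipy 1.17.1. The fit was tested on simulated data. The text names every member probe set, up to 4 genes of each list from the 4 with the smallest p at day 14, and the 6 probe sets with the profile most like the members. The members, lists and tests were chosen with earlier results of these data known. Alternatives were a further quantile normalization, array medians, a replicate block, eBayes options, fewer samples in the fit, a filter on SD, linear folds, gene means, a one-way analysis of variance, and leaving out arrays. A time left with 1 array was taken to have the spread of the other times. The number of arrays limits the precision.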

Additional observations from a re-analysis of the deposited data

How the results depend on the processing

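In limma, 0 member probe sets passed an adjusted p of 0.05 against control or across the 4 times, with all arrays and under every alternative run. The lowest adjusted p of a member probe set against control was 0.095 (day 3, without day 3 replicate 2). With the replicate number as a block (replicate block) the count stayed at 0, and the lowest adjusted p was 0.503 at day 3 and 0.437 at day 14. The labels do not say that a number marks a shared batch, and the deviations of same-numbered arrays correlated between -0.40 and 0.55 over the 6 pairs of times, so the numbers were not taken to pair the samples. None of the probe set differences from control at an unadjusted p under 0.05 or past 2-fold changed sign under the alternatives that keep probe sets apart. Gene means do not keep them apart. The mean of *Rgs9* was -0.27 at day 3 and -0.30 at day 14, opposite in sign to its higher probe set (0.44 and 0.43). The number of lower probe sets at an unadjusted p under 0.05 at day 3 was 5, and 1 in the one-way analysis of variance, 3 of the 12 members above the median SD, and 2 to 6 with 1 array left out. The number lower by 2-fold, 2 at day 3 and at day 14, was 1 for gene means at both times and 1 for linear folds at day 14. With 1 array left out it was 0 to 2 at day 3 and 1 to 2 at day 14, and 1 at day 14 with the second arrays of days 3 and 14 left out together, an alternative chosen after the data were seen. Leaving out day 3 replicate 2 and day 14 replicate 1 together, also chosen after the data were seen, gave 7 lower probe sets at an unadjusted p under 0.05 at day 14, where all arrays gave 3. At day 7, 1 probe set in place of 2 lay below both control arrays after array medians were subtracted, and 1 gene mean did. This count needs 2 arrays a time and was not run with arrays left out. The causes were not tested beyond fewer arrays, probe sets or genes.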

Other observations

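Genes that feed or specify photoreceptors are given here as values with no explanation. Of 7 measured genes of the visual cycle, which remakes the chromophore, 7 were lower at day 3 (median -0.43), 1 at day 7 (0.19) and 4 at day 14 (-0.09). *Rbp3*, the retinoid carrier between photoreceptors and pigment epithelium, was at -0.77 ± 0.19 at day 3 and -0.57 ± 0.19 at day 14. For 8 pigment epithelium genes the medians were -0.56 (day 3, 8 lower), 0.73 (day 7, 0 lower) and 0.72 (day 14, 0 lower). *Rdh5*, a visual cycle gene, stood at 2.02 on day 7 replicate 2, where the epithelium median was 1.69. On that array *Rbp3* was at 0.47, *Rlbp1* at 0.37 and *Rdh12* at 0.06. The part of pigment epithelium in the visual cycle values was not tested. Of 7 photoreceptor transcription factors, 7 were lower at day 3 (-0.46) and 6 at day 14 (-0.68), 4 of them at an unadjusted p under 0.05 in limma each time (4.61% and 3.56% of all genes). *Neurod1* was at -0.45 and -0.68, *Samd7* at -0.33 and -0.97, *Otx2* at -0.63 and -0.70, and *Rorb* at -0.48 and -0.79. These 4 had the smallest p at day 14, when the 7 factors ranged from -0.97 to 0.05. The rod factor *Nrl* was at -0.46 and -0.23. With day 3 replicate 2 and day 14 replicate 2 left out, the medians were -0.57 and -0.33 for the factors and -0.41 and 0.21 for the visual cycle. With day 14 replicate 1 left out in place of replicate 2, the day 14 medians were -0.76 and -0.19. Genes of bipolar cells had medians of -0.59 (5 of 5 lower) at day 3 and -0.80 (4 of 5) at day 14, and cone markers -0.11 and -0.02. Rod markers had -0.27 (6 of 7 lower) and -0.15 (6 of 7), with *Prph2*, a protein of the disc rim, at 1.03 and 0.84. Without day 3 replicate 2 the day 3 medians were -0.41 (bipolar), 0.25 (cone) and -0.43 (rod). Without day 14 replicate 2 the day 14 medians were -0.40, 0.02 and 0.01 (3 of 7 rod markers lower). Without day 14 replicate 1 they were -0.95, -0.33 and -0.36. Cornea and conjunctiva genes were lower at all 3 times (6 of 6 each, medians -2.76 at day 3, -1.66 at day 7 and -0.70 at day 14), with array medians of 0.86 and 2.04 on the control arrays, and 2 blood genes had medians of 0.29 and 0.31. None of these gene means passed an adjusted p of 0.05.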
